A study of Mus musculus with 2 samples.

Results

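Mir451a, Mir144 and Mir486 are microRNA genes whose products are typical of red blood cells, and they were followed here as a gauge of blood in the adrenal gland. They were taken by name, as 3 of the 2202 microRNA genes counted, and no threshold on a measured value entered the rule. Counts came from microRNA-seq of adrenal gland tissue of female B6CASTF1/J mice, a hybrid of the strains C57BL/6J and CAST/EiJ, at an age of 10 days. There is 1 group of 2 libraries, labelled biological replicates 2 and 1 from animals 4 and 3, with 1 technical replicate each and no treatment or altered allele named. The labels give both libraries the same donor entry, so that only these numbers mark them as separate animals, and an interval or p below measures counting error between 2 libraries.

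MicroRNAs are short RNAs cut from hairpin precursors that guide repressor complexes to messenger RNAs through their seed, the bases just after the 5′ end. Mir144 and Mir451a sit side by side in 1 primary transcript that the erythroid factor GATA1 switches on as red cells mature. The mouse Mir451a hairpin is too short for the usual second cutting step and is instead sliced by Argonaute2, while Mir144 follows the usual route. Mir486 lies within the gene of erythroid ankyrin and is also made in striated muscle. Red cells that have lost their nucleus keep these microRNAs, so blood left in an organ brings them into its small RNA.

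Both genes of the chromosome 11 cluster lie on the plus strand of mm10 (GRCm38), with Mir144 (ENSMUSG00000065401.1) at chr11:78073005-78073070 and Mir451a (ENSMUSG00000070065.1) at chr11:78073170-78073241. A stretch of 99 bases separates them. They overlap no host gene, and the nearest coding gene on either side is Flot2, which ends 12570 bases before Mir144, and Eral1, which lies on the minus strand 134 bases beyond Mir451a. Mir486 (ENSMUSG00000070084.3) lies at chr8:23142555-23142682, in an intron of Ank1 on the plus strand. Mir451a and Mir486 each have a partner microRNA gene annotated on the other strand, Mir451b (ENSMUSG00000104813.1) over all 72 bases and Mir3107 (ENSMUSG00000106471.1) over 90 bases. Mir144 has no such partner.

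The mature sequences below, from RefSeq on GRCm38.p6, show the seed (bases 2 to 8) in capitals, and the Mir451b product is included because it would come from the strand opposite to Mir451a. RefSeq sequences matched 2 of the 3 genes, Mir451a and Mir144.
mmu-miR-451a: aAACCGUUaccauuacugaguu
mmu-miR-144-3p: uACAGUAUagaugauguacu
mmu-miR-144-5p: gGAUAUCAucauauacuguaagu
mmu-miR-451b: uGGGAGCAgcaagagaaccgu

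The 4 seeds differ from each other, and none of them is shared by another of the 1738 mature sequences in that table. No other mature sequence there holds a run of 18 bases from any of the 4. The products are 20 to 23 bases long, so a read spans a whole product and counts were not divided by length.

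The hairpins of the cluster, with the mature products in capitals, show how differently these neighbours are built.
Mir451a hairpin: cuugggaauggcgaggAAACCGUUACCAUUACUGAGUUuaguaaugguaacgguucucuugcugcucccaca
Mir144 hairpin: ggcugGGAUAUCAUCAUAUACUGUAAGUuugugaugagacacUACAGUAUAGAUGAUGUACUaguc

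In Mir451a, a single product covers bases 17 to 38 of 72. In Mir144, the 5′ product covers bases 6 to 28 and the 3′ product bases 43 to 62 of 66. The counts are per hairpin gene, so the 2 arms of Mir144 were summed. G and C made up 36.4% of miR-451a, 30.4% of miR-144-5p and 30.0% of miR-144-3p.

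Of 8555429 reads in replicate 2, 3208821 (37.5%) fell on microRNA genes, as did 2023410 (38.3%) of the 5278986 reads in replicate 1. Levels are given as CPM, counts per 1000000 assigned reads, so that 1 read was worth 0.312 CPM in replicate 2, against 0.494 CPM in replicate 1. Reads with several alignments, 27.2% of reads in replicate 2 and 25.0% in replicate 1, were not counted. Reads were counted on the strand of the gene unless stated.

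Each of the 3 genes took under 0.05% of assigned counts in either library. Mir451a, with the most counted reads of them, had 735 reads in replicate 2 (229 CPM, exact Poisson 95% interval 213 to 246) and 704 reads in replicate 1 (348 CPM, 323 to 375), a mean of 288 ± 84.1 CPM (SD, n = 2). It ranked 166 among the 2202 genes in replicate 2 and 143 in replicate 1, near the middle of the 329 genes measured. Its read counts were thus nearly equal, while its level was lower in replicate 2, the more deeply sequenced library.

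Mir144 had 194 reads in replicate 2 (60.5 CPM, interval 52.2 to 69.6) and 498 reads in replicate 1 (246 CPM, 225 to 269), a mean of 153 ± 131 CPM (SD, n = 2). Its rank was 236 in replicate 2 and 157 in replicate 1. Mir144 was the most variable of the 3, with an SD close to its mean. In bulk tissue, fewer red cells and less of a microRNA per red cell cannot be told apart.

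Mir486 had 97 reads in replicate 2 (30.2 CPM, interval 24.5 to 36.9) and 119 reads in replicate 1 (58.8 CPM, 48.7 to 70.4), a mean of 44.5 ± 20.2 CPM (SD, n = 2). It ranked 267 in replicate 2 and 238 in replicate 1. No RefSeq sequence matched Mir486, so reads that fit both it and its opposite-strand partner Mir3107 could not be identified. Such reads would have several alignments and go uncounted, so these counts may understate Mir486. The order of counted reads, Mir451a, Mir144, Mir486, was the same in both libraries. Within each library the counting intervals of neighbours in that order did not overlap, but these intervals do not cover uncounted reads. Across the libraries, however, the ranges of Mir451a and Mir144 overlapped, since Mir144 in replicate 1 stood above Mir451a in replicate 2, and the counting intervals of Mir144 in replicate 2 and Mir486 in replicate 1 overlapped.

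**Figure D1:**
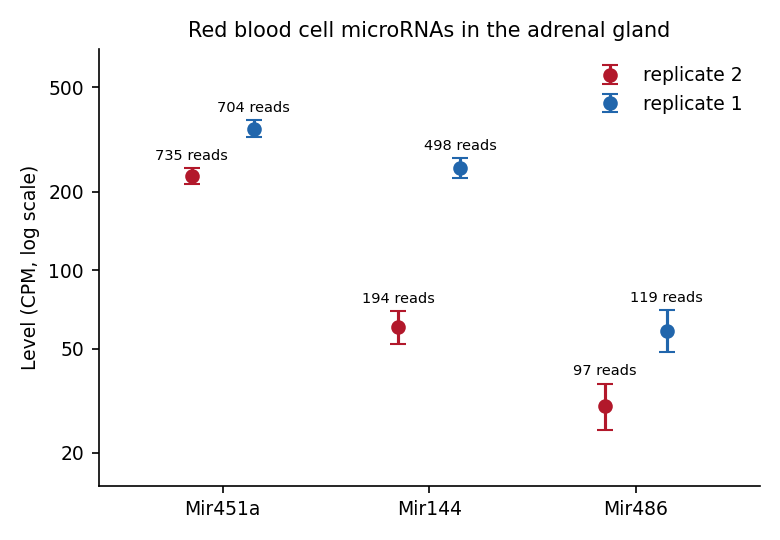
Levels of the 3 genes on a log axis of CPM, with replicate 2 in red and replicate 1 in blue. Bars are exact Poisson 95% intervals of each count, and the label over each point gives the reads behind it. Each gene is lower in replicate 2, and the gap is widest for Mir144 (60.5 CPM in replicate 2, against 246 CPM in replicate 1).

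Together the 3 genes took 0.0320% of assigned counts in replicate 2 (exact Clopper-Pearson 95% interval 0.0300 to 0.0340%) and 0.0653% in replicate 1 (0.0618 to 0.0689%), or 0.0486% ± 0.0236 on average (SD, n = 2). The share in replicate 2 was 0.490 times that in replicate 1. The makeup of the sum also differed. Mir451a made up 71.6% of it in replicate 2 and 53.3% in replicate 1, Mir144 18.9% in replicate 2 and 37.7% in replicate 1, and Mir486 9.45% in replicate 2 and 9.01% in replicate 1. Any reads that fit both Mir486 and Mir3107 are missing from the sum and from these shares.

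The levels of Mir451a and Mir486 rested on counting by strand. For Mir451a, 0 reads fell on the opposite strand beside 735 in replicate 2 and 704 in replicate 1, which allows a share of up to 0.408% in replicate 2 and 0.426% in replicate 1. Mir451b, counted on that strand, accordingly had 0 reads, which leaves room for at most 0.935 CPM in replicate 2 and at most 1.48 CPM in replicate 1. For Mir486, 9 of 106 reads in replicate 2 (8.49%, exact Clopper-Pearson 95% interval 3.96 to 15.5%) and 5 of 124 in replicate 1 (4.03%, 1.32 to 9.16%) lay on the strand of Mir3107. In the column counted irrespective of strand, the reads of both overlapping loci were set aside as ambiguous, so Mir451a, Mir486, Mir451b and Mir3107 all stood at 0 there, while Mir144 kept the same 194 and 498 reads.

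**Figure D2:**
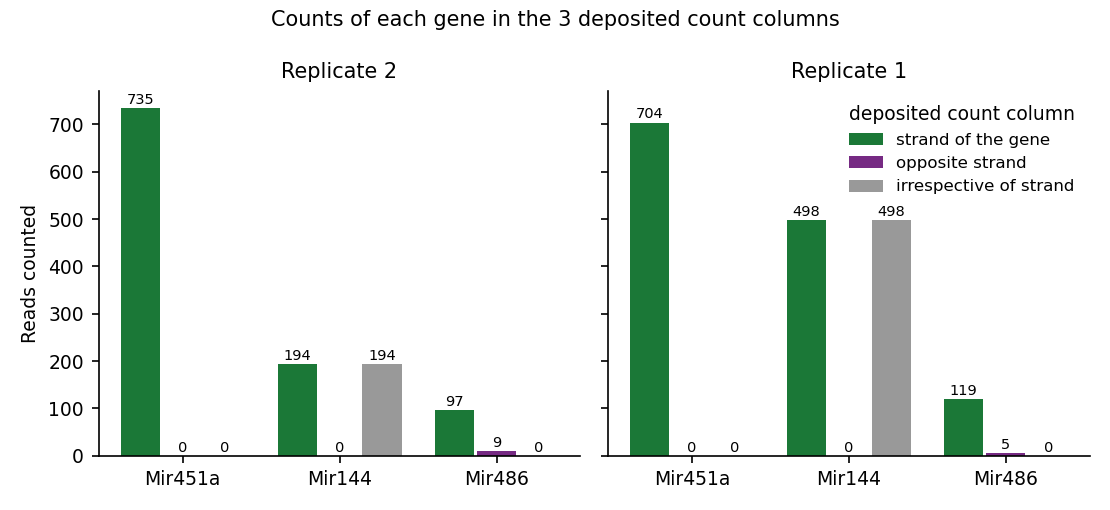
Reads of each gene in the 3 deposited count columns (strand of the gene in green, opposite strand in purple, irrespective of strand in grey), for replicate 2 on the left and replicate 1 on the right. Mir451a and Mir486 stand at 0 irrespective of strand in both libraries, whereas Mir144, which has no opposite-strand partner, keeps all its reads.

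The 2 hairpins at the Mir451a locus are exact reverse complements of each other, and each folds back on itself. As a result, bases 2 to 17 of miR-451a, in capitals in the next line, also occur in the Mir451b hairpin.
mmu-miR-451a, run shared with the Mir451b hairpin: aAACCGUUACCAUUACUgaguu

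A read of these 16 bases alone would match both strands of the locus, and a longer read of miR-451a would match its own strand. The mature miR-451b lies elsewhere in the hairpin, at chr11:78073219-78073239 on the minus strand, and shares no run longer than 6 bases with the Mir451a hairpin.

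Each of the 329 genes that reached 10 CPM in a library was then compared between the libraries. Ratios are replicate 2 over replicate 1, as log2 of TMM-scaled CPM plus a pseudocount of 1 CPM, and intervals are exact 95% intervals without the pseudocount. Mir144 had the largest difference of the 3 genes (log2 ratio -1.96, interval -2.22 to -1.74, adjusted p = 2.8e-66 by a two-sided exact binomial test conditional on the gene's summed count, Benjamini-Hochberg adjusted over the 329 genes). Mir486 had a log2 ratio of -0.89 (interval -1.31 to -0.51, adjusted p = 7.0e-06 by the same exact test). Mir451a had the smallest (log2 ratio -0.55, interval -0.71 to -0.40, adjusted p = 9.6e-13 by the same exact test).

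All 3 genes were thus called lower in replicate 2. This is to be read against a background in which 74.2% of the 329 genes were called in either direction and 36.5% were called lower in replicate 2, because the test weighs counting error only. By rank, 9 of the 329 genes (2.74%) had a log2 ratio below that of Mir144, 42 (12.8%) below that of Mir486 and 77 (23.4%) below that of Mir451a. Mir144 therefore lay near the edge of the distribution and Mir451a well inside it. Of the 329 genes, 302 reached 10 CPM in both libraries. Among the genes below Mir144, Mir544 (-3.09), Mir208b (-2.07) and Mir181a-2 (-2.01) reached it in replicate 1 alone, which fixed their direction. The median log2 ratio of the 3 was -0.89, against -0.0052 over all genes tested.

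**Figure D3:**
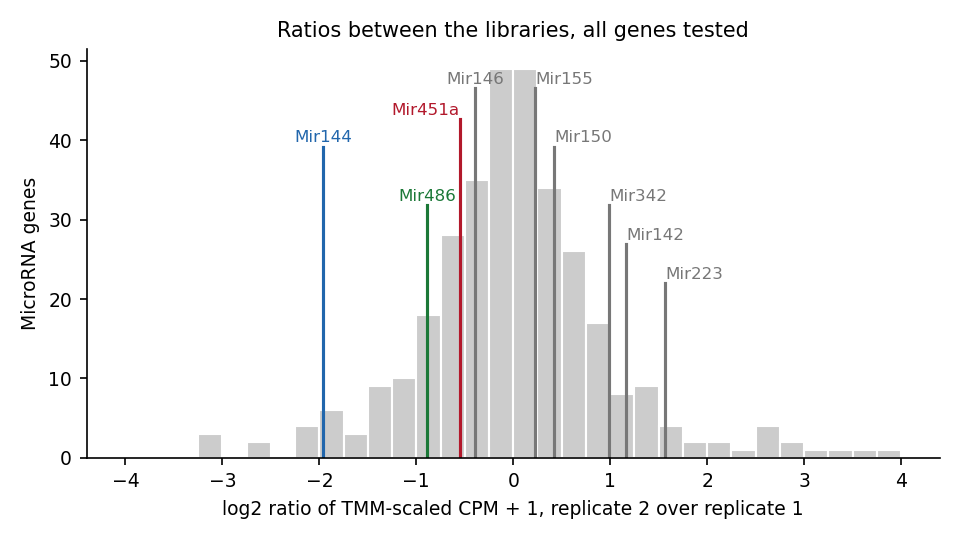
Histogram of log2 ratios of TMM-scaled CPM plus 1, replicate 2 over replicate 1, for the 329 genes tested, with vertical lines at Mir144 (-1.96), Mir486 (-0.89), Mir451a (-0.55) and, in grey, the 6 leukocyte and platelet genes from Mir146 (-0.39) and Mir155 (0.23) to Mir142 (1.16) and Mir223 (1.57). The red blood cell genes and Mir146 lie left of 0 and the other 5 leukocyte genes right of it.

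The 3 genes did not move by a common factor. Ratios of their read counts within a library need no scaling, and 8 such pairs of genes were computed. Mir451a had 3.79 reads per Mir144 read in replicate 2 (exact binomial 95% interval 3.23 to 4.46) and 1.41 in replicate 1 (1.26 to 1.59), so that this ratio was 2.68 times as high in replicate 2 (exact conditional 95% interval 2.20 to 3.28). Mir144 had 2.00 reads per Mir486 read in replicate 2 (1.56 to 2.58) and 4.18 in replicate 1 (3.42 to 5.16), 0.478 times as many in replicate 2 (0.345 to 0.664). Mir451a had 7.58 reads per Mir486 read in replicate 2 (6.12 to 9.46) and 5.92 in replicate 1 (4.87 to 7.25), and the interval of the change, 0.951 to 1.73 times, included no change. Thus the proportion of counted reads of Mir451a to Mir486, which lie on different chromosomes, showed no change beyond counting error, though the interval reached 1.73 times. Reads that fit both Mir486 and Mir3107 would be missing from it, so it may not be the proportion of the microRNAs themselves. The proportion of Mir451a to Mir144, which lie in 1 cluster, differed between the libraries by more than counting error.

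Such a gap between cluster neighbours was not confined to this locus. The log2 ratios of Mir451a and Mir144 lay 1.41 apart. Among the other 93 adjacent pairs of measured microRNA genes that share a strand and lie within 10 kb, the median gap was 0.72, and 20 pairs (21.5%) had a larger gap than this one. Among the larger were Mir145a with Mir143 (2.34) and Mir497 with Mir195a (2.52), which were named after their values were seen. These genes reached 10 CPM in both libraries. Other pairs with a larger gap include a gene that reached it in 1 library alone, such as Mir544 with Mir382 (3.54). The floor fixes the direction of such a gene and favours a large gap, and the share of larger gaps without such pairs was not computed.

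Leukocyte and platelet microRNAs, which would enter the gland with the same blood or reside in it, went the other way. Of the 6 genes in that list, 5 were called higher in replicate 2 and 1 lower (median log2 ratio 0.70), where 37.7% of all genes tested were called higher. Mir142, present across blood cell lineages, stood at 1023 CPM in replicate 2, against 471 CPM in replicate 1 (log2 ratio 1.16), and Mir223, a microRNA of granulocytes and platelets, at 265 CPM in replicate 2, against 91.4 CPM in replicate 1 (1.57). Mir342 (1857 CPM in replicate 2, against 967 CPM in replicate 1, 0.99) and Mir150 of lymphocytes (933 CPM in replicate 2, against 721 CPM in replicate 1, 0.42) were also higher. Mir146, which encodes miR-146a, was the gene called lower, at 1060 CPM in replicate 2, against 1441 CPM in replicate 1 (-0.39). The list summed to 5368 CPM in replicate 2, against 3895 CPM in replicate 1, above the 320 CPM and 653 CPM of the red blood cell genes in the same libraries.

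Set against Mir142 and Mir223, which had the largest log2 ratios of that list, Mir451a gave different readings of the 2 glands. It had 0.224 reads per Mir142 read in replicate 2 (exact binomial 95% interval 0.206 to 0.243) and 0.738 in replicate 1 (0.669 to 0.814). Against Mir223, it had 0.866 reads per read in replicate 2 (0.783 to 0.957) and 3.81 in replicate 1 (3.23 to 4.50). The size of the difference varied across the list. The ratio in replicate 2 was 0.227 to 0.581 times that in replicate 1 for 5 of the 6 genes, but 0.895 times for Mir146, against which Mir451a had 0.216 reads per read in replicate 2 (0.199 to 0.234) and 0.242 in replicate 1 (0.222 to 0.262), with intervals that overlapped.

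Against Mir126a of endothelium the order was turned round, because Mir126a differed more than Mir451a did. Mir126a stood at 47927 CPM in replicate 2, against 177728 CPM in replicate 1 (log2 ratio -1.84). Per 1000 Mir126a reads there were 4.78 Mir451a reads in replicate 2 (interval 4.44 to 5.14) and 1.96 in replicate 1 (1.82 to 2.11). Per 1000 reads of Mir375, the neuroendocrine microRNA of the medulla, there were 7.18 in replicate 2 (6.66 to 7.72) and 14.0 in replicate 1 (13.0 to 15.1). The ratio of miR-451a to miR-23a serves in human plasma as an index of broken red cells. Here it was 7.78 Mir451a reads per 1000 Mir23a reads in replicate 2 (7.22 to 8.36) and 32.8 in replicate 1 (30.4 to 35.4). Mir23a itself stood at 29452 CPM in replicate 2, against 10601 CPM in replicate 1 (log2 ratio 1.52). The ratio thus also carries the difference in Mir23a, which was larger in size than that in Mir451a (-0.55). Whether the gland of replicate 2 read as the one with less or more Mir451a depended on which gene Mir451a was set against.

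**Figure D4:**
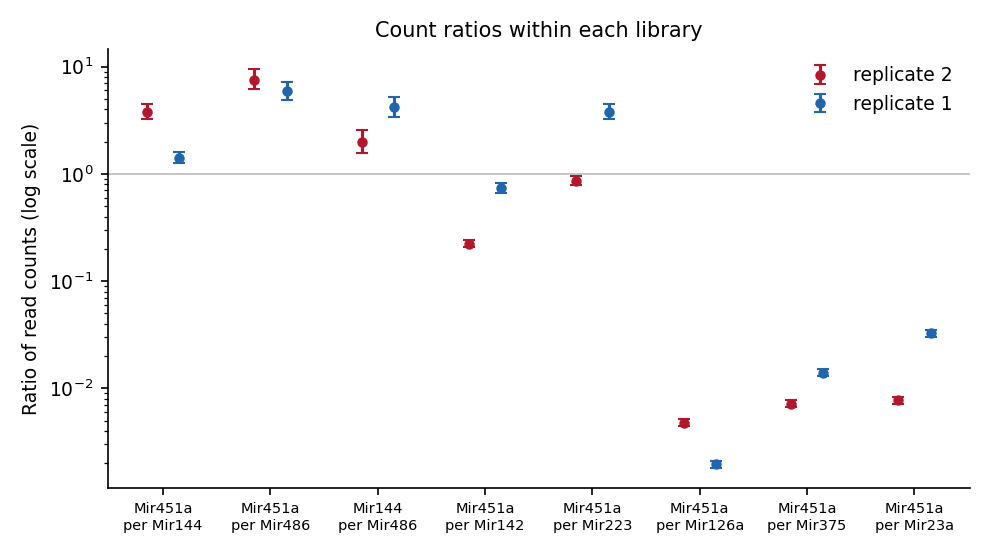
Ratios of read counts within each library on a log axis, replicate 2 in red and replicate 1 in blue, with exact binomial 95% intervals. Mir451a per Mir144 and per Mir126a is higher in replicate 2, per Mir142, Mir223, Mir375 and Mir23a lower, and per Mir486 the intervals of the libraries overlap.

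Other microRNAs abundant in red cells and their precursors, but made in many other cells, were mostly lower in replicate 2 as well. Of the 14 genes in that list 13 were measured, of which 9 were called lower, 1 higher and 3 did not pass (median log2 ratio -0.50), beside 36.5% called lower and 37.7% called higher over all genes tested. Mir15a stood at 1025 CPM in replicate 2, against 3996 CPM in replicate 1 (log2 ratio -1.91), Mir15b at 1246 CPM in replicate 2, against 3895 CPM in replicate 1 (-1.60) and Mir92-1, which encodes miR-92a, at 1875 CPM in replicate 2, against 2555 CPM in replicate 1 (-0.40). Mir93, the most abundant of them, was the gene called higher, at 7008 CPM in replicate 2, against 4399 CPM in replicate 1 (0.72). Mir16-1 with Mir16-2, and Mir92-1 with Mir92-2, are copies that share a mature sequence, and reads fitting both copies were not counted. The list summed to 14015 CPM in replicate 2, against 19347 CPM in replicate 1. In counted reads, these broadly expressed genes thus far outweighed the 3 red blood cell genes, whose sum lacks any reads shared by Mir486 and Mir3107.

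Several markers of tissues outside the gland were lower in replicate 2 together with Mir451a, Mir144 and Mir486. Mir122 of the liver stood at 9284 CPM in replicate 2, against 26733 CPM in replicate 1 (log2 ratio -1.48). Of 9 striated muscle genes, 2 reached 10 CPM in both libraries and both were called lower in replicate 2, where 36.5% of all genes tested were. These were Mir206 at 4480 CPM in replicate 2, against 11177 CPM in replicate 1 (log2 ratio -1.27), and Mir499 at 11.2 CPM in replicate 2, against 78.1 CPM in replicate 1 (-2.65). Mir208b and Mir133b reached 10 CPM in replicate 1 alone, which fixed their direction. The muscle list summed to 4508 CPM in replicate 2, against 11315 CPM in replicate 1, with Mir1a-1 and Mir133a-2 at 0 in both libraries. The copies of Mir1a and Mir133a share reads that were not counted. Muscle is also a source of Mir486, and the part of these tissues in the Mir486 level was not tested.

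Of 4 kidney or gut epithelial genes 3 were measured, with Mir192 (47.1 CPM in replicate 2, against 172 CPM in replicate 1, log2 ratio -1.80) and Mir194-2 (69.8 CPM in replicate 2, against 178 CPM in replicate 1, -1.29) lower and Mir204 (96.3 CPM in replicate 2, against 57.8 CPM in replicate 1, 0.77) higher. The list summed to 214 CPM in replicate 2, against 410 CPM in replicate 1, and none of its genes was at 0. Mir194-1 is another copy of Mir194-2, and reads fitting both copies were not counted. The gland's neuroendocrine cells were represented by Mir375, at 31924 CPM in replicate 2, against 24805 CPM in replicate 1 (0.41), and by Mir7b and Mir137 at log2 ratios of -0.12 each. No list covered the cortex of the gland. Mir143 (0.34) and Mir145a (2.68) of smooth muscle were higher in replicate 2. The part of these tissues in the levels of Mir451a and Mir144 was not tested.

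**Figure D5:**
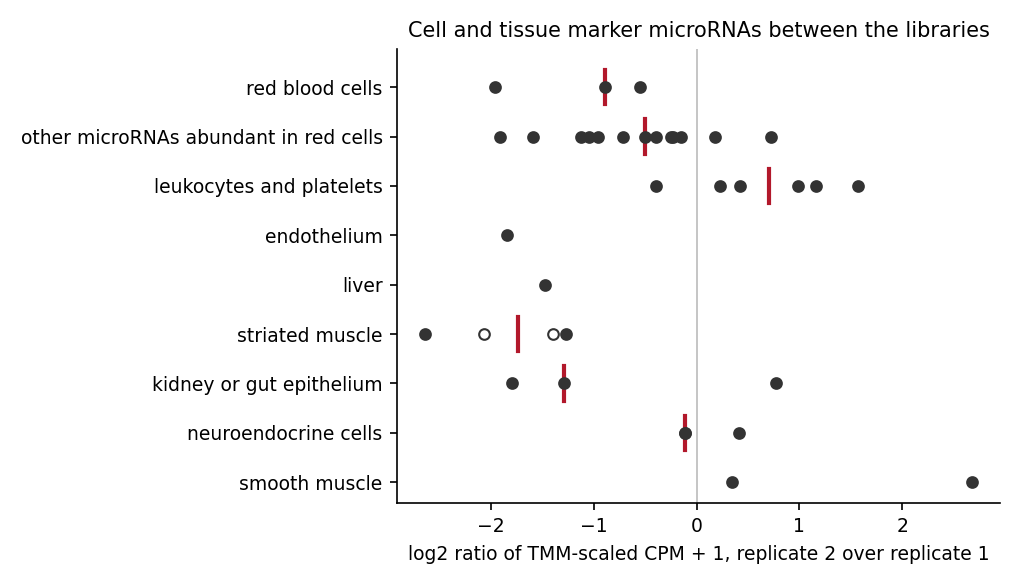
Log2 ratios of TMM-scaled CPM plus 1, replicate 2 over replicate 1, of each measured gene in 9 marker lists. Filled points reached 10 CPM in both libraries and open points in 1, and red ticks mark the medians of lists with at least 3 measured genes. Red blood cell, endothelial, liver and striated muscle genes lie left of 0, and 5 of 6 leukocyte genes right of it.

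The genes nearest to each of the 3 in level and in its change, by Euclidean distance over log2(CPM + 1) in the 2 libraries, were drawn from several chromosomes. Nearest to Mir451a were Mir574 (243 CPM in replicate 2, against 302 CPM in replicate 1), Mir16-2 (245 CPM in replicate 2, against 416 CPM in replicate 1) and Mir339 (230.3 CPM in replicate 2, against 429 CPM in replicate 1), at distances of 0.22, 0.27 and 0.30. Nearest to Mir144 were Mir194-2, Mir24-2 (84.1 CPM in replicate 2, against 194 CPM in replicate 1) and Mir192, at distances of 0.51, 0.58 and 0.63, so no gene matched it closely. Nearest to Mir486 were Mir5121, Mir7689 and Mir7-2, at distances of 0.29, 0.32 and 0.37. Mir16-2, Mir194-2, Mir24-2 and Mir7-2 each have another gene copy, and reads fitting more than 1 copy were not counted. With 2 libraries, many genes can fall near any point by level alone.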

How the data were processed

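MicroRNA-seq counts of 2 adrenal gland libraries were used. Per the text deposited with them, the authors made 1 table of raw, unnormalized counts for every library, with reads placed on mm10 and genes from GENCODE M21. The aligner and the counter: not given in the sources used here. Judged from its values, each table counts reads in 3 columns, without regard to strand, on the gene's own strand (used here) and on the other strand. Its 4 summary lines were left out of totals and tests.

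Symbols and coordinates came from GENCODE M21 and sequences from RefSeq (GRCm38.p6). CPM used all counts assigned to microRNA genes. The test was an exact conditional binomial test on library sizes scaled by TMM (edgeR 4.0.16) and Benjamini-Hochberg adjustment at 0.05 over 329 genes, those that reached 10 CPM in a library. It was checked on simulated counts that held counting error only. That check cannot show how the test behaves where libraries vary by more than counting error. The test compares 2 libraries, not conditions. Intervals and limits for a count of 0 (3 counts) cover counting error only, since no molecular identifiers are named in the sources used here. Alternatives used DESeq2 1.42.0 size factors, unscaled totals, other floors, another pseudocount, the unstranded column and other denominators.

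Genes named were the 3 members, their overlapping or near microRNA genes, the 3 nearest genes to each in level, up to 4 of highest mean CPM per marker list, and Mir23a and Mir375. Other genes were named, and ratios of Mir451a to leukocyte genes beyond Mir142 and Mir223 added, after the values were seen. The members and lists were chosen with earlier results of these data known. Calculations ran in R 4.3.3 and Python 3.11.15 with SciPy 1.17.1.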

Additional observations from a re-analysis of the deposited data

Results flagged for a closer look

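Reads on the strand opposite to Mir486, where Mir3107 is annotated, lie outside the column used for the levels. They numbered 9 in replicate 2 and 5 in replicate 1, and expression of Mir3107 was not tested. As levels of Mir3107 these are 2.80 CPM in replicate 2, against 2.47 CPM in replicate 1.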

How the results depend on the processing

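The calls of Mir144, Mir486 and Mir451a as lower in replicate 2 held under each alternative that gave a value. The log2 ratio ran from -2.01 to -1.89 for Mir144 over 6 alternatives, from -0.94 to -0.81 for Mir486 over 4 and from -0.60 to -0.52 for Mir451a over 5, with adjusted p of the exact test at most 1.7e-05. Counted irrespective of strand, Mir451a and Mir486 fell to 0 and had no ratio, Mir144 averaged 216 CPM, the summed share was 0.0216% and Mir451a reads per Mir144 read were 0. At a floor of 100 CPM, Mir486 was not tested. Genes called ran from 195 of 217 tested at a floor of 100 CPM (44.7% of those tested called lower) to 247 of 790 with no filter (15.1% called lower), so the background for the 3 calls depends on the floor. Per 1000000 of all reads, mean levels were 110 for Mir451a, 58.5 for Mir144 and 16.9 for Mir486, and the summed share was 0.0185% of all reads. Per 1000000 mapped reads, they were 151, 81.0 and 23.4. Leaving out each library gave the other's value, 229 and 348 CPM for Mir451a, 60.5 and 246 CPM for Mir144, 30.2 and 58.8 CPM for Mir486, 0.0320% and 0.0653% for the summed share and 3.79 and 1.41 Mir451a reads per Mir144 read. No paired analysis was possible because the 2 libraries form 1 group. With 97 reads in replicate 2 and 119 in replicate 1, the Mir486 level has the widest counting interval of the 3 genes relative to its size.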
